A study of Mus musculus with 4 samples.

Results

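The 10 genes for integrin subunits followed across the cultures were Itga3, Itga4, Itga5, Itga6, Itga7, Itgav, Itgb1, Itgb4, Itgb5 and Itgb7. Every probe set whose only gene symbol in the platform annotation was one of these 10 genes was taken, which gave 20 of the 12422 probe sets on the array that are not controls. Gene expression was measured on 4 MG_U74Av2 arrays, 1 RNA sample each. The neurosphere array held RNA of floating spheres grown with FGF2 from the telencephalon of mouse embryos at E13.5, and the labels list astrocytes, oligodendrocytes and other glia among its contaminating cells. The 2 embryoid body arrays, titled aggregation and suspension, held RNA of R1 cells, an established mouse embryonic stem (ES) cell line, kept unattached for 48 hours in DMEM with LIF and beta-mercaptoethanol. The adherent array held RNA of R1 cells in DMEM on gelatin with the same supplements. Both embryoid body arrays carry 1 sample identifier in the labels and were treated as 2 replicates. The labels do not say whether they are separate cultures. The p-values and standard errors (SE) reflect only how far these 2 arrays differ, be it for technical reasons or because the titles name different culture forms. That spread was taken mostly from all tested probe sets of like signal (25.4 prior degrees of freedom against 1 residual). The difference between the 2 arrays in any 1 probe set therefore enters its own SE and p-value only a little. The neurosphere and adherent arrays had no replicate.

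Integrins are cell-surface receptors built from 1 alpha and 1 beta chain, and they tie the extracellular matrix to the actin cytoskeleton. The beta chain encoded by Itgb1 pairs with most of the alpha chains named here and forms receptors for laminin, fibronectin and collagen. In ES cells and neural stem cells such receptors are known for attachment to laminin-rich matrix.

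Signals are MAS5 signal intensities scaled so that each array has a 2% trimmed mean of 500, and they have no absolute unit. Differences are on the log2(signal + 32) scale, which understates changes of dim probe sets. The deposited scales lay 45.5-fold (aggregation) and 50.3-fold (neurospheres) below that of suspension before scaling. Suspension and adherent cells both had a deposited trimmed mean of 1501, so the 2 embryoid body arrays were deposited on different scales. After scaling, array medians were 239 in neurospheres, 222 and 234 in embryoid bodies and 177 in adherent cells. The ratio of 3' to 5' Gapdh control signal was 0.946 in neurospheres, 0.880 and 0.893 in embryoid bodies and 0.804 in adherent cells. The cell types named in the labels were checked with marker lists. Of 9 pluripotency markers 8 fell in neurospheres against embryoid bodies in limma's test, with summed signals of 7798 in neurospheres, 66354 and 76391 in embryoid bodies and 66984 in adherent cells. Of 10 tested neural progenitor and radial glia markers 6 rose, with sums of 71255 in neurospheres, 10959 and 11992 in embryoid bodies and 10547 in adherent cells. Sox2 is in both lists, with 6554 in neurospheres, 8748 and 9874 in embryoid bodies and 9330 in adherent cells. It made up most of the pluripotency sum in neurospheres and most of the neural sums on the R1 arrays. Fabp7 alone, at 41301, made up most of the neural sum in neurospheres.

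**Figure D1:**
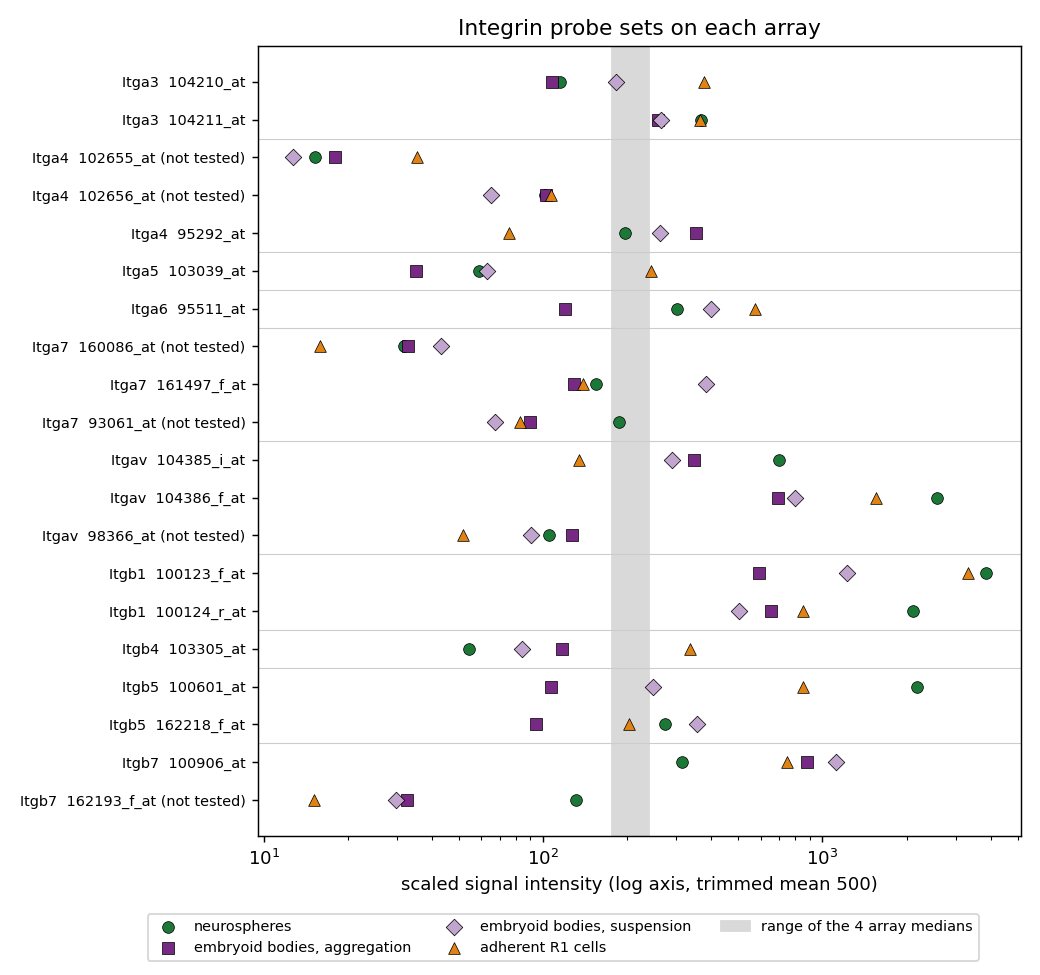
Scaled signal intensity (log axis) of each of the 20 integrin probe sets on the 4 arrays, 1 point per array, with the range of the 4 array medians in grey. The _f_at and _r_at probe sets of Itgb1, the _f_at probe set of Itgav and 100601_at of Itgb5 have their highest point in neurospheres and both embryoid body points below adherent cells, and 6 probe sets lie left of the grey band or inside it on all arrays and were not tested.

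The integrins that stood apart by culture were Itgb1, Itgb5, Itgb7 and Itgav. In embryoid bodies, Itgb1 and Itgb5 fell relative to adherent cells of the same line, and in neurospheres Itgb1, Itgb5 and Itgav rose relative to embryoid bodies, which were also floating. The falls held for 1 of the 2 tested probe sets of Itgb1 and of Itgb5, and these calls were kept under 4 and 2 of 7 tested alternatives. The rise held for both tested probe sets of Itgb1 and for 1 of the 2 tested probe sets of Itgb5 and of Itgav. Itgb7 fell in neurospheres relative to embryoid bodies in its 1 tested probe set, while its untested, dim probe set was highest in neurospheres. No probe set of Itga3, Itga4, Itga5, Itga6, Itga7 or Itgb4 passed limma's test in any of the 3 comparisons.

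Glial markers were also higher on the neurosphere array. The summed signal of 6 astrocyte markers was 6369 in neurospheres, 602 and 1301 in embryoid bodies and 475 in adherent cells. Of the 5 tested, 2 rose in neurospheres against embryoid bodies in limma's test. These were Aldoc, a glycolytic enzyme (log2 difference 3.51, adjusted p = 2.04e-05), and Sparcl1, a secreted matrix glycoprotein (3.77, adjusted p = 0.00510). Gfap (1.05), Aqp4 (0.87) and Slc1a2 (1.33) did not pass in that test (adjusted p = 0.365, 0.620 and 0.304). Aldoc alone, at 4221, made up most of the astrocyte sum in neurospheres. The sum of 6 oligodendrocyte lineage markers was 3291 in neurospheres, 1314 and 1716 in embryoid bodies and 795 in adherent cells, and 1 of the 4 tested rose, the transcription factor gene Nkx2-2 (3.17, adjusted p = 0.0129). The part of these cells in the neurosphere results was not tested.

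A probe set was tested when it reached the array median on at least 1 array. This held for 14 of the 20, and the other 6 were 2 of Itga4, 2 of Itga7, 1 of Itgav and 1 of Itgb7. The tested probe sets are therefore not the whole set, and 104210_at (Itga3), 103039_at (Itga5) and 103305_at (Itgb4) entered only through the adherent array, 161497_f_at (Itga7) only through suspension and 95292_at (Itga4) only through the 2 embryoid body arrays. One limma model was fitted to all 4 arrays and 8031 probe sets, with Benjamini-Hochberg adjustment within each comparison. In embryoid bodies against adherent cells, 2 of 14 integrin probe sets were called lower, where 0.187% of all tested probe sets were, and 0 higher, where 0.299% were (1 had an unadjusted p under 0.05, where 8.01% of all did). Of the 15 probe sets called lower in that comparison, Itgb5 had the largest difference and Itgb1 ranked 5. The 10 genes were chosen with earlier results of these data known, so these ranks and all shares given here are a description only. In neurospheres against embryoid bodies, 4 of 14 were called higher (7.43% of all) and 1 lower (10% of all). In neurospheres against adherent cells, 2 of 14 were called higher (6.85% of all) and 0 lower (10.7% of all), and 1 of the lower ones had an unadjusted p under 0.05, where 16.5% of all did. Neurospheres and embryoid bodies each enter 2 of these comparisons, and so do adherent cells, so the comparisons are not separate evidence.

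Itgb1 encodes the common beta chain of the laminin, fibronectin and collagen receptors. Its probe set 100123_f_at had a signal of 3845 on the neurosphere array, 590.1 on the aggregation array, 1225 on the suspension array and 3316 on the adherent array. Both embryoid body arrays thus lay well below the other arrays, at the 74.3rd and 88.0th percentile of their arrays against the 97.3rd in neurospheres and the 96.1st in adherent cells. Itgb1 fell in embryoid bodies, at a mean of 907 ± 449 (SD, n = 2) against 3316 in adherent cells, a log2 difference of -1.92 ± 0.36 (SE; limma adjusted p = 0.00775). It rose by 2.13 ± 0.36 in neurospheres against embryoid bodies (adjusted p = 6.97e-05). Neurospheres and adherent cells differed by 0.21, with a 95% interval of -0.63 to 1.05, and did not pass (adjusted p = 0.757). Without the aggregation array the difference of embryoid bodies from adherent cells was -1.41, and without the suspension array it was -2.43; these values have no test, since no replicate is left. For neurospheres against embryoid bodies the same omissions gave 1.63 and 2.64.

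The second Itgb1 probe set, 100124_r_at, is annotated with the same accession, X15202. It had 2101 on the neurosphere array, 655 on the aggregation array, 501 on the suspension array and 849 on the adherent array. Here too the embryoid body arrays were the lowest and neurospheres the highest. It rose in neurospheres against embryoid bodies by 1.82 ± 0.38 (limma adjusted p = 0.00101). The log2 difference of embryoid bodies from adherent cells, -0.54 ± 0.38, did not pass (adjusted p = 0.553). Unlike 100123_f_at, it rose in neurospheres against adherent cells, by 1.28 ± 0.44 (adjusted p = 0.0432). Both cultures have 1 array there, so this p rests on the spread of the 2 embryoid body arrays, and the call held under 2 of 6 tested alternatives.

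Itgb5 encodes a beta chain that pairs with the Itgav chain in a vitronectin receptor. Its probe set 100601_at had 2187 on the neurosphere array, 106 on the aggregation array, 246 on the suspension array and 854 on the adherent array. The order from high to low was neurospheres, adherent cells and embryoid bodies. Both embryoid body arrays lay below the other cultures, as in 11.3% of all 12422 probe sets. The range of 4.00 in log2 over the 4 arrays was the widest of the tested integrin probe sets. Neurospheres had 12.4 times the embryoid body mean of 176 ± 99.1 (SD, n = 2), a rise of 3.50 ± 0.50 in log2 (limma adjusted p = 7.86e-06). Itgb5 fell by 2.18 ± 0.50 in embryoid bodies against adherent cells (adjusted p = 0.0406), and adherent cells had 4.84 times the embryoid body mean. Neurospheres against adherent cells did not pass, at 1.32 ± 0.58 (adjusted p = 0.114). Without the aggregation array the difference of embryoid bodies from adherent cells was -1.67, and without the suspension array -2.68, both without a test. Neurospheres had 8.88 times the signal of suspension alone and 20.6 times that of aggregation alone, and adherent cells had 3.47 and 8.04 times.

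The other Itgb5 probe set, 162218_f_at, had 272 on the neurosphere array, 94.1 on the aggregation array, 355 on the suspension array and 202 on the adherent array. The embryoid body arrays lay on either side of the other cultures, so this probe set showed no separation by culture. Its differences were -0.08 for embryoid bodies against adherent cells, 0.46 for neurospheres against embryoid bodies and 0.38 for neurospheres against adherent cells, and none passed (limma adjusted p = 0.969, 0.730 and 0.798).

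Itgav encodes an alpha chain of receptors for vitronectin and other ligands with the RGD sequence. Its probe set 104386_f_at had 2580 on the neurosphere array, 692 on the aggregation array, 799 on the suspension array and 1549 on the adherent array. The order of cultures was that of Itgb5, with the embryoid body arrays close to each other and lowest. It rose in neurospheres against the embryoid body mean of 746 ± 75.2 (SD, n = 2) by 1.75 ± 0.34 (limma adjusted p = 4.67e-04). Embryoid bodies lay at -1.03 ± 0.34 against adherent cells (adjusted p = 0.175), and neurospheres at 0.72 ± 0.39 against adherent cells (adjusted p = 0.213).

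A second probe set, 104385_i_at, annotated with the same accession (AI843901), had 696 on the neurosphere array, 347 on the aggregation array, 290.1 on the suspension array and 134 on the adherent array. Here adherent cells were the lowest array. Its difference between embryoid bodies and adherent cells was 1.08 ± 0.57 (adjusted p = 0.409), opposite in sign to that of 104386_f_at, and it rose in neurospheres against adherent cells by 2.13 ± 0.66 (limma adjusted p = 0.0247), a call between single arrays that held under 3 of 6 tested alternatives. Neurospheres against embryoid bodies lay at 1.06 ± 0.57 and did not pass (adjusted p = 0.231). The third, 98366_at, had 105 on the neurosphere array, 127 on the aggregation array, 90.7 on the suspension array and 51.7 on the adherent array, below the median of every array, and was not tested.

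Itgb7 encodes a beta chain known from lymphocyte homing receptors. Its probe set 100906_at had 314 on the neurosphere array, 878 on the aggregation array, 1117 on the suspension array and 745 on the adherent array. All 3 R1 arrays lay above neurospheres. Relative to the embryoid body mean of 998 ± 169 (SD, n = 2), Itgb7 fell by 1.56 ± 0.41 in log2 in neurospheres (limma adjusted p = 0.00770). Neurospheres against adherent cells lay at -1.17 ± 0.47 (adjusted p = 0.0897), and embryoid bodies against adherent cells at 0.40 ± 0.41 (adjusted p = 0.709). The probe set 162193_f_at had 131 on the neurosphere array, 32.4 on the aggregation array, 29.8 on the suspension array and 15.1 on the adherent array, so neurospheres were the highest array, but it stayed below every array median and was not tested.

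Leukocyte markers are given beside Itgb7 because Itgb7 is known from those cells. The list of microglia, macrophage and other leukocyte markers had 11 genes on the array, and 7 of these lay below the median of all arrays. The list's summed signal was 2750 in neurospheres, 2568 and 2200.1 in embryoid bodies and 2105 in adherent cells. The pan-leukocyte gene Ptprc had 29.9 on the neurosphere array, 32.3 on the aggregation array, 48.6 on the suspension array and 27.4 on the adherent array, near the 10th percentile of the arrays, which ranged from 17.3 to 33.3. Of the 4 tested markers, 1 rose and 1 fell in neurospheres against embryoid bodies in limma's test. Cd14, a coreceptor for bacterial lipopolysaccharide, rose by 1.48 (adjusted p = 0.0463), and Cd68, a lysosomal glycoprotein of macrophages, fell by 1.63 (adjusted p = 0.00670), the direction of Itgb7. The brightest, the growth factor receptor gene Csf1r, had 1195 on the neurosphere array, 867 on the aggregation array, 541 on the suspension array and 400.2 on the adherent array and did not pass there (0.77, adjusted p = 0.235). The part of such cells in the Itgb7 result was not tested.

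Itgb4 encodes the beta chain of the laminin receptor of hemidesmosomes, which pairs with the Itga6 chain. Its probe set 103305_at had 54.3 on the neurosphere array, 117 on the aggregation array, 84.1 on the suspension array and 335 on the adherent array. Adherent cells were the only array above its median. Embryoid bodies lay at -1.48 ± 0.91 against adherent cells (limma adjusted p = 0.479) and neurospheres at -2.09 ± 1.05 (adjusted p = 0.180). The 95% intervals, -3.36 to 0.39 and -4.25 to 0.08, both include 0.

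Among the alpha chains, Itga6 encodes the laminin-binding chain that is widely used as a surface marker of stem cells. It had 302 on the neurosphere array, 120 on the aggregation array, 399 on the suspension array and 572 on the adherent array. The embryoid body arrays differed 3.34-fold from each other and lay on either side of neurospheres, and adherent cells were highest. Embryoid bodies against adherent cells lay at -1.24 ± 0.63 (limma adjusted p = 0.386).

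Itga3 encodes another laminin-binding chain. Its probe set 104210_at had 115 on the neurosphere array, 108 on the aggregation array, 183 on the suspension array and 376 on the adherent array, with adherent cells highest. Its probe set 104211_at had 366 on the neurosphere array, 258 on the aggregation array, 264 on the suspension array and 363 on the adherent array. In this probe set neurospheres lay at 0.01 against adherent cells (95% interval -1.36 to 1.39), whereas 104210_at put neurospheres at -1.48 ± 0.89 against adherent cells (adjusted p = 0.264).

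Itga5 encodes the alpha chain of the fibronectin receptor. It had 58.9 on the neurosphere array, 34.9 on the aggregation array, 62.8 on the suspension array and 244 on the adherent array. The 3 floating cultures lay between the 12.8th and 22.2nd percentile of their arrays and adherent cells at the 56.3rd. Embryoid bodies against adherent cells lay at -1.79 ± 1.10 (limma adjusted p = 0.478).

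Itga4 encodes the alpha chain of receptors for VCAM1 and fibronectin. Its probe set 95292_at had 196 on the neurosphere array, 353 on the aggregation array, 263 on the suspension array and 75.5 on the adherent array, so the floating cultures were all above adherent cells. The embryoid body difference of 1.65 ± 0.72 did not pass (limma adjusted p = 0.300, unadjusted 0.0307). The other Itga4 probe sets, not tested, ran the other way, with the highest signal in adherent cells: 102656_at had 101 on the neurosphere array, 102 on the aggregation array, 64.8 on the suspension array and 106 on the adherent array. The signals of 102655_at ran from 12.7 to 35.4, at or under the 4.47th percentile of the 3 floating arrays and at the 21.6th of the adherent array.

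Itga7 encodes a laminin-binding chain known from muscle. Its tested probe set, 161497_f_at, had 155 on the neurosphere array, 129 on the aggregation array, 384 on the suspension array and 139 on the adherent array. Suspension alone was high, and the other embryoid body array lay with the other cultures. The 2 untested probe sets ranged from 15.8 to 43.1 (160086_at) and from 67.2 to 187 (93061_at), with suspension highest in the first and neurospheres highest in the second.

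**Figure D2:**
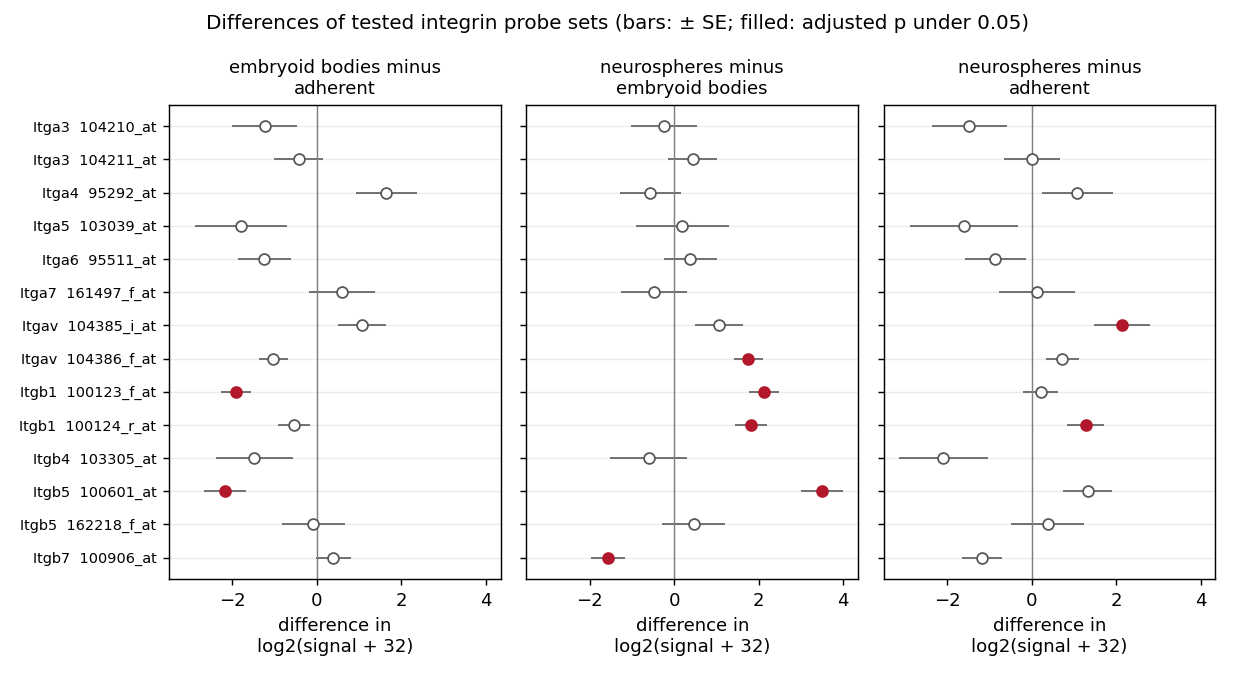
Differences in log2(signal + 32) of the 14 tested integrin probe sets in the 3 comparisons, with bars of ± 1 SE from limma and filled points for an adjusted p under 0.05. Filled points are 2 below zero in embryoid bodies minus adherent, 4 above and 1 below zero in neurospheres minus embryoid bodies, and 2 above zero in neurospheres minus adherent.

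RefSeq promoter windows (build GRCm38.p6, 250 bases before to 50 after a gene start) were found for 7 of the 10 genes, and those of the 4 genes with a called probe set are shown because Itgb1, Itgav and Itgb5 rose together in neurospheres against embryoid bodies and Itgb7 fell. The start used by the table is the annotated gene start for Itgb1 and Itgb5, but lies 2094 bases inside the gene for Itgav and 1470 bases inside it for Itgb7, so these last windows are not at the outermost annotated start. Capitals mark matches to the GC box GGGCGG or its reverse complement CCGCCC, as read on the gene's strand from 5′ to 3′.
Itgb1, chr8:128685404-128685703, + strand: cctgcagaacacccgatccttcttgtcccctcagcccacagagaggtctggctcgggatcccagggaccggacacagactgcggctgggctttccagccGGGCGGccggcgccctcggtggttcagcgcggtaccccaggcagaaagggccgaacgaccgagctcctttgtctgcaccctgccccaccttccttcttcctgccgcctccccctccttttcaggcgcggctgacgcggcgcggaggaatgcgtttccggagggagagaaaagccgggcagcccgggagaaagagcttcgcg
Itgav, chr2:83724147-83724446, + strand: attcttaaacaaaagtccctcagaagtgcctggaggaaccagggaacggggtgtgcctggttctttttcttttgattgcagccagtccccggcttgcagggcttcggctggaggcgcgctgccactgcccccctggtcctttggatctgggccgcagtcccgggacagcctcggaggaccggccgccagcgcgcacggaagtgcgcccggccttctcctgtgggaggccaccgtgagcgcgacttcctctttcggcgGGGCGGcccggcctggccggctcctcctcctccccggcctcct
Itgb5, chr16:33829415-33829714, + strand: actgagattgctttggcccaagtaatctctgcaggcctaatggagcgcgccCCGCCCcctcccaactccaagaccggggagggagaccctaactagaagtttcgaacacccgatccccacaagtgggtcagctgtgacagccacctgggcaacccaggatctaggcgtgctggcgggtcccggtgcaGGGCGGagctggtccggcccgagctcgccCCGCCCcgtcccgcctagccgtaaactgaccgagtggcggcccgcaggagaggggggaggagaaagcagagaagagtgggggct
Itgb7, chr15:102231886-102232185, - strand: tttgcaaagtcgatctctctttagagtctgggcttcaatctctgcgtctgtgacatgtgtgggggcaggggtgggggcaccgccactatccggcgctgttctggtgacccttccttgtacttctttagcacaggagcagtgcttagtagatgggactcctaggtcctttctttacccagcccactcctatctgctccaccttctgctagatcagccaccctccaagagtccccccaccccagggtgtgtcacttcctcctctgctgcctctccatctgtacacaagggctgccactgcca

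The windows of Itgb1, Itgav and Itgb5 held 27, 24 and 20 CpG dinucleotides and 1, 1 and 3 GC boxes. That of Itgb7 held 5 CpG dinucleotides and 0 GC boxes. Windows of genes without a called probe set also held GC boxes. Itga4 had 10 CpG dinucleotides and 1 GC box, and Itga5 had 13 and 2. Itga3 had 24 and 3 in the window nearest its annotated start, and 5 and 1 in a window whose start lies 7646 bases inside the gene. A link of these letters to the signal differences was not tested. Over all 32851 promoter windows of the same length the median was 7 CpG dinucleotides (10th to 90th percentile 1 to 31), and 35.7% held a GC box. The TATA box letters TATAAA were in none of the 4 windows on either strand and in 13.6% of all windows, and the CCAAT letters were in none of the 4 and in 37.4% of all. These are matches of letters and not binding sites.

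Floating and attached culture were also compared over all 20 probe sets by counting, without the signal filter and without a test. Neurospheres differ from adherent R1 cells in cell type and supplements together with culture form, and these cannot be told apart here. In 6 of 20 probe sets all 3 floating arrays lay below adherent cells, against 18.5% of all 12422 probe sets. These were 104210_at of Itga3, both untested Itga4 probe sets and the single probe sets of Itga5, Itga6 and Itgb4. In 5 of 20 all 3 lay above adherent cells, against 42.2% of all, and these were 95292_at of Itga4, 160086_at of Itga7, 104385_i_at and 98366_at of Itgav and 162193_f_at of Itgb7. The adherent array had a lower 10th percentile (17.3) than the other arrays (29.1 to 33.3), and dim probe sets are part of these counts. The counts also depend on scaling. All 3 floating arrays lay below adherent cells in 7 of 20 after quantile normalization and in 8 of 20 after scaling to one median. They lay above in 5 of 20 under both. In the main scaling, Itgb1 and 100601_at of Itgb5 were in neither count, because neurospheres lay above and embryoid bodies below adherent cells. Both embryoid body arrays lay below both other cultures in 5 of 20 probe sets, against 11.3% of all, and above both in 3 of 20, against 20% of all. The 5 were both Itgb1 probe sets, 104386_f_at of Itgav, 100601_at of Itgb5 and 104211_at of Itga3.

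Of the 10 genes, 7 had more than 1 probe set, and 4 had 2 that were tested. Levels of different probe sets cannot be set against each other, but their differences can. In neurospheres against embryoid bodies, the Itgb1 pair differed by 0.32 in log2 (the dimmer minus the brighter gave -0.32), within the median absolute gap of 0.62 over 1019 genes with at least 2 tested probe sets. The Itgb5 pair had a gap of -3.04 there, beyond the 90th percentile of absolute gaps, 1.86. In embryoid bodies against adherent cells the gaps were 1.38 for Itgb1, 2.10 for Itgav and 2.09 for Itgb5, with a median absolute gap of 0.56 and a 90th percentile of 1.51 over the 1019 genes. The falls of Itgb1 and Itgb5 in embryoid bodies against adherent cells therefore each rest on 1 of 2 probe sets. The Itgav probe sets had opposite signs there. Over all 1019 genes, 59.2% of pairs had the same sign in that comparison and 68.3% in neurospheres against embryoid bodies. Probe sets of the _f_at, _r_at and _i_at classes can detect related transcripts or contain fewer selected probes, and 100601_at of Itgb5 and 100906_at of Itgb7 are of none of these classes.

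**Figure D3:**
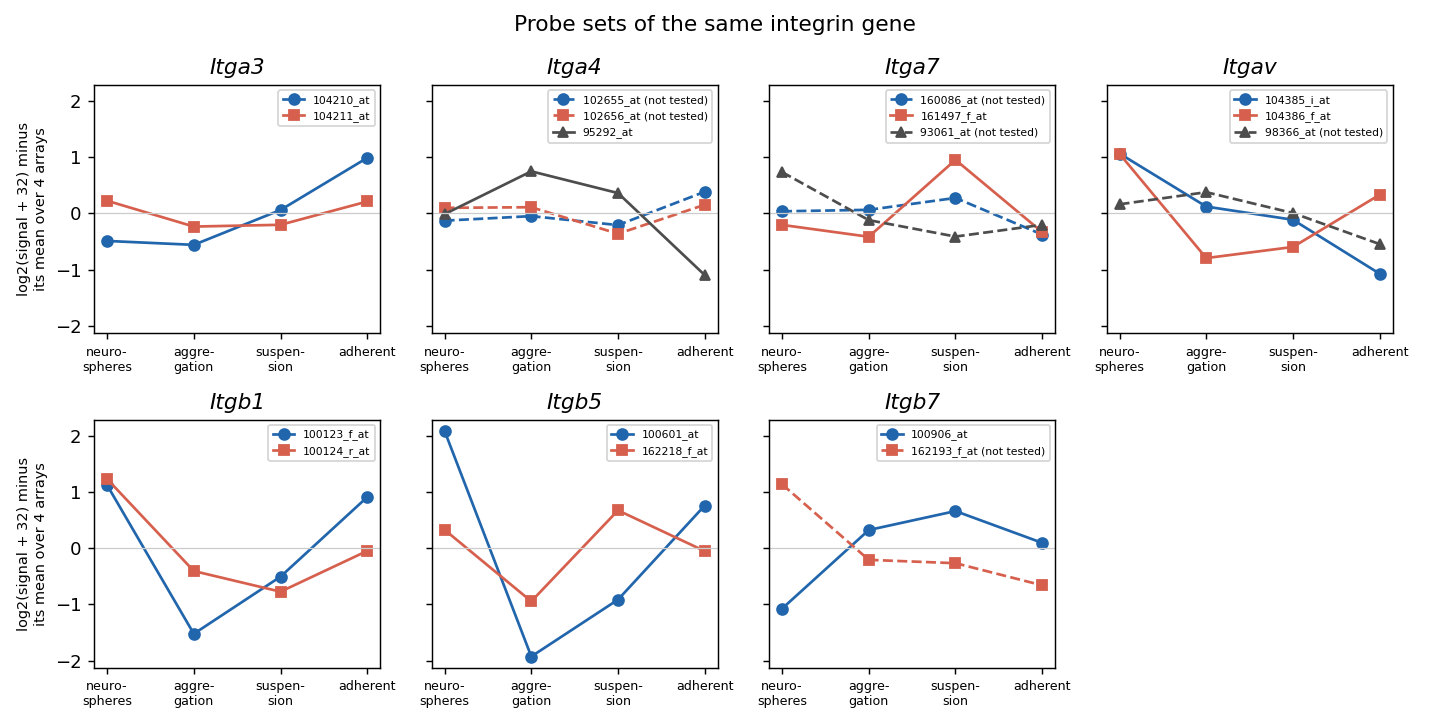
Centred log2(signal + 32) of each probe set over the 4 arrays for the 7 integrin genes with more than 1 probe set, with solid lines for tested and dashed lines for untested probe sets. The lines of the 2 Itgb1 probe sets have the same high and low cultures, whereas those of Itgav cross between embryoid bodies and adherent cells and those of Itgb5 differ most in neurospheres.

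The embryoid body arrays differed from each other for several integrins. Aggregation was at least 2-fold below suspension on the log2(signal + 32) scale in 5 of 20 probe sets, against 8.70% of all, and at least 2-fold above it in 0 of 20, against 7.02% of all. The differences were -1.62 for 162218_f_at of Itgb5, -1.51 for Itga6, -1.37 for 161497_f_at of Itga7, and -1.01 each for 100123_f_at of Itgb1 and 100601_at of Itgb5. The other Itgb1 probe set, 100124_r_at, went the other way, at 0.37. With 1 array for each title there is no test. The log2 values of these arrays correlated at r = 0.891 across 8031 probe sets, which are not independent replicates. The brighter Itgb1 and Itgb5 probe sets were below adherent cells on both arrays.

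The genes whose profile over the 4 arrays was nearest to that of 100123_f_at of Itgb1 were Jak1, a tyrosine kinase of cytokine receptors (distance 0.46 in centred log2), Txndc5, a thioredoxin-domain protein of the endoplasmic reticulum (0.47), and Acsl5, an acyl-CoA synthetase (0.51). Txndc5, for example, had 1120 on the neurosphere array, 203 on the aggregation array, 410 on the suspension array and 801 on the adherent array. Nearest to 100601_at of Itgb5 were Arl3, a small GTPase of cilia (0.46), Serpinh1, the collagen chaperone HSP47 (0.55), and Rcn1, a calcium-binding protein of the endoplasmic reticulum (0.59). Serpinh1 had 2542 on the neurosphere array, 139 on the aggregation array, 495 on the suspension array and 1113 on the adherent array. With 4 arrays and 8031 probe sets to choose from, such likeness is a description only.

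Other subunits and partners were counted from fixed lists, with 1 probe set per gene. Of 8 further integrin subunits on the array 3 were tested and 0 were called in any comparison by limma (with an unadjusted p under 0.05, 1 and 0 in embryoid bodies against adherent cells, 0 and 0 in neurospheres against embryoid bodies and 0 and 0 in neurospheres against adherent cells). The ones with the highest mean were Itgax and Itgal, both leukocyte alpha chains. Itgax had 256 on the neurosphere array, 236 on the aggregation array, 376 on the suspension array and 239.8 on the adherent array, and Itgal had 122 on the neurosphere array, 303 on the aggregation array, 288 on the suspension array and 53.7 on the adherent array. Of 20 tested ligands, 1 was called higher and 0 lower in embryoid bodies against adherent cells, namely the collagen gene Col1a2 (1.50 ± 0.30, adjusted p = 0.0117), where 0.299% of all tested probe sets were called higher. Col1a2 is also among 9 fibroblast (feeder cell) markers, whose summed signal was 3805 in neurospheres, 4745 and 4604 in embryoid bodies and 1829 in adherent cells. Col1a2 itself made up most of these sums on the R1 arrays, with 3023 and 3391 in embryoid bodies and 1115 in adherent cells. The sums therefore largely repeat its signal. Of the 6 tested markers Col1a2 alone was called higher in that comparison (median 1.32), with 3 higher at an unadjusted p under 0.05. The part of feeder cells in the result was not tested. In neurospheres against embryoid bodies 2 of the 20 ligands rose and 5 fell, where 7.43% of all tested probe sets rose and 10% fell. The risers were Mfge8 (1.47), a secreted ligand of integrins with the Itgav chain, and Agrn (1.08), the proteoglycan agrin. The largest falls were Nid2, a basement membrane protein (-3.90), Icam1, a ligand of leukocyte integrins (-3.43), and Fn1, fibronectin (-3.20). In neurospheres against adherent cells 1 rose and 6 fell (6.85% and 10.7% of all), Mfge8 by 1.28 and Nid2, Icam1 and the laminin chain gene Lama1 at -5.24, -5.09 and -3.87. The medians of the tested ligands were -0.14, -0.38 and -0.04 in these comparisons, where all 8031 probe sets had medians of 0.09, -0.02 and 0.19.

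Of 21 tested membrane partners, limma called 0 in embryoid bodies against adherent cells. In neurospheres against embryoid bodies 3 rose and 4 fell (7.43% and 10% of all; median 0.56). Cd47, the integrin-associated protein, rose by 2.25 and the tetraspanin genes Cd63 and Cd81 by 1.50 and 1.18, while the proteoglycan Sdc4, the epithelial adhesion gene Epcam and Slc3a2, the CD98 heavy chain, lay at -3.81, -2.49 and -1.33. In neurospheres against adherent cells 3 rose and 4 fell (6.85% and 10.7% of all; median 0.88). Cd47 (2.42), Igsf8, a partner of tetraspanins (1.49), and Cd81 (0.99) rose, and Epcam (-4.03), Sdc4 (-2.79) and Slc3a2 (-1.82) had the largest falls.

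Of 23 tested cytoplasmic adaptors and kinases, limma called 0 in embryoid bodies against adherent cells (median -0.34). In neurospheres against embryoid bodies 2 rose and 7 fell (7.43% and 10% of all; median -0.45). The tyrosine kinase Fyn (3.71) and Ilk, the integrin-linked kinase (1.32), rose. Enah, a regulator of actin filament growth, Plec, the plectin linker of hemidesmosomes, and Actn1, an actinin that joins beta chains to actin, lay at -3.28, -2.47 and -2.37. Against adherent cells 2 rose and 8 fell in neurospheres (6.85% and 10.7% of all; median -0.43). Fyn (3.16) and Itgb1bp1 (2.22), which binds the tail of the Itgb1 chain, rose, and Enah (-3.98), Plec (-3.18) and Actn1 (-3.13) had the largest falls. At an unadjusted p under 0.05, embryoid bodies against adherent cells had 3 higher and 3 lower membrane partners and 2 higher and 3 lower adaptors and kinases.

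**Figure D4:**
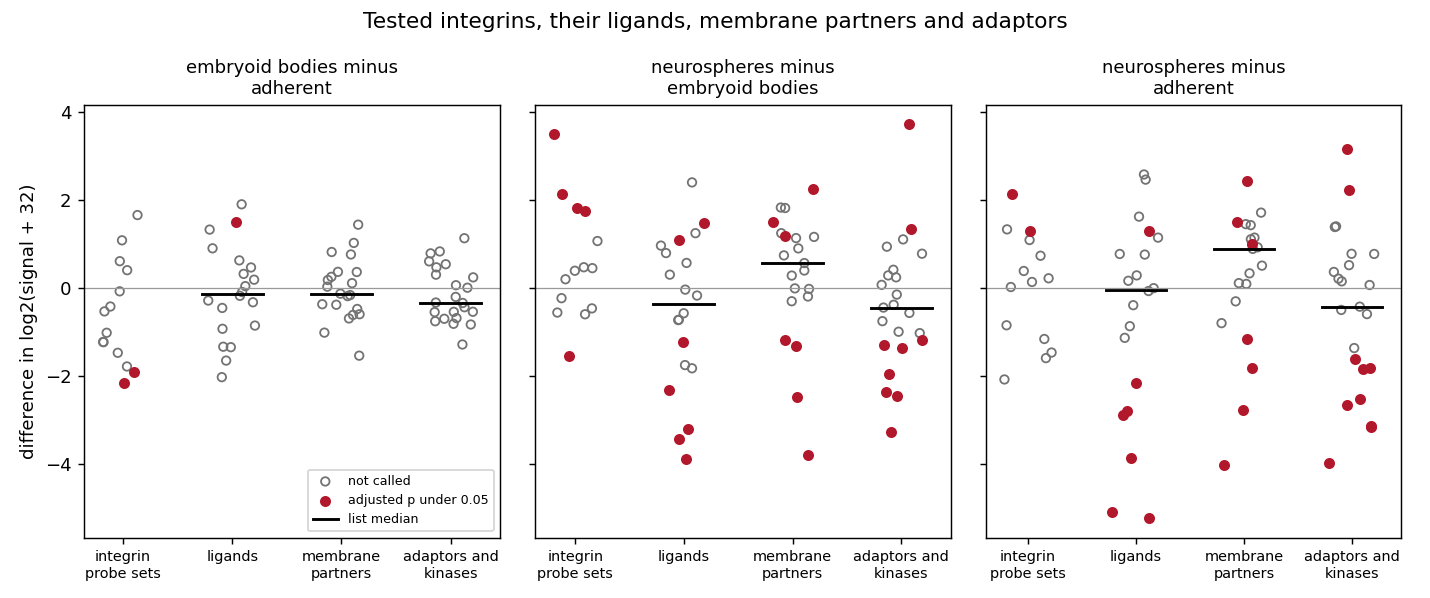
Differences in log2(signal + 32) of the tested integrin probe sets and of the tested ligands, membrane partners and cytoplasmic adaptors and kinases, with filled points for a limma adjusted p under 0.05 and lines at the median of each list other than the integrins. In embryoid bodies minus adherent the filled points are 2 integrin probe sets below zero and 1 ligand above it.

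The calls depend on the variance model, which has 1 residual degree of freedom. Without its intensity trend limma called 0 integrin probe sets in any comparison (at an unadjusted p under 0.05, 1 higher and 5 lower in embryoid bodies against adherent cells, 4 and 1 in neurospheres against embryoid bodies, and 1 and 3 in neurospheres against adherent cells), and the calls in embryoid bodies against adherent cells also ended after quantile normalization and without the signal filter.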

How the data were processed

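Total RNA was labelled with biotin and hybridised to 4 MG_U74Av2 arrays. The deposited values are linear intensity values per probe set, made by the authors with MAS5 per the submitters' processing notes; its version and scaling target were not given in the sources used here. Each array (all 12488 probe sets) was scaled to a trimmed mean of 500, with 2% left out at each end, 66 AFFX controls were removed, and 32 was added before log2. Of 12422 probe sets the platform annotation gives 10833 a single symbol, 396 several and 1193 none. Probe sets were tested, without merging those of a gene, when at or above the array median on at least 1 array (8031).

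One limma 3.58.1 model (R 4.3.3) with 3 groups and an intensity trend was fitted to all 4 arrays. The embryoid body arrays gave 1 residual degree of freedom and the prior 25.4, so single arrays were assumed to vary like embryoid bodies. Two-sided p-values were adjusted by Benjamini-Hochberg with a threshold of 0.05. The code was tested on simulated data. Precision is limited by there being 4 arrays. Alternatives were other added values, no filter, quantile or median scaling, no trend, 1 probe set per gene and leaving out an embryoid body array.

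All integrin probe sets are named; from each list, up to 3 called genes each way by size, or the 2 brightest; and the 3 genes nearest in profile to the brightest Itgb1 and the most variable integrin probe set. The members and lists were chosen with earlier results of these data known. Sequences are from RefSeq (GRCm38.p6).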

Additional observations from a re-analysis of the deposited data

How the results depend on the processing

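No paired analysis was possible because the labels give no replicate numbers and 2 of the 3 groups have 1 array. All integrin values keep their direction with 1 or 100 added, without the filter, without the intensity trend and with 1 probe set per gene. Of integrin probe sets, embryoid bodies against adherent cells had 1 lower with 100 added or 1 probe set per gene, and 0 lower without the filter (4 at an unadjusted p under 0.05), after quantile normalization (3) and without the trend (5). After median scaling it had 3 lower, with 104386_f_at of Itgav gained (-1.39, adjusted p = 0.0113). Neurospheres against embryoid bodies had 4 higher and 1 lower under every tested alternative but no trend (0 and 0) and 1 probe set per gene (3 and 1). Neurospheres against adherent cells had 0 higher without the filter, after quantile normalization, with 1 probe set per gene and without the trend, and 1 higher and 1 lower after median scaling (100906_at of Itgb7, -1.58, adjusted p = 0.0101). Adjusted p over the tested alternatives ranged from 9.09e-07 to 0.468 for the fall of Itgb1 (100123_f_at) in embryoid bodies against adherent cells and from 3.83e-04 to 0.468 for that of Itgb5 (100601_at). In neurospheres against embryoid bodies the ranges were 3.23e-07 to 0.107 for 100123_f_at, 2.95e-04 to 0.0897 for 100124_r_at, 3.66e-09 to 0.0548 for 100601_at, 1.16e-04 to 0.0894 for 104386_f_at of Itgav and 0.00219 to 0.115 for 100906_at of Itgb7. In neurospheres against adherent cells they were 0.0243 to 0.0888 for 104385_i_at of Itgav and 0.0424 to 0.196 for 100124_r_at.

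Over all probe sets, the 24 higher and 15 lower calls in embryoid bodies against adherent cells became 46 and 28 with 1 added, 21 and 8 with 100 added, 0 and 0 without the filter (786 and 493 at an unadjusted p under 0.05), 14 and 2 after quantile normalization, 39 and 377 after median scaling, 0 and 0 without the trend (521 and 256), and 18 and 6 with 1 probe set per gene. Without the trend the 597 and 807 calls in neurospheres against embryoid bodies became 71 and 92, and the 550 and 860 against adherent cells became 24 and 55. Against adherent cells the counts were 350 and 1475 after median scaling. Median scaling moved the median of all probe sets to -0.25 in embryoid bodies against adherent cells and to -0.21 in neurospheres against adherent cells, against 0.09 and 0.19. Neurospheres against adherent cells changed sign after quantile normalization for 104211_at of Itga3 (-0.18) and 161497_f_at of Itga7 (-0.30), and after median scaling for these (-0.39 and -0.23), 100123_f_at of Itgb1 (-0.22) and 162218_f_at of Itgb5 (-0.0055); none was called. Where no construction shows it, the cause was not tested. Without either embryoid body array no residual degree of freedom is left, so those fits have values and no calls. Leaving 1 out turned the sign of 7 differences, none of them called. Without aggregation these were 162218_f_at of Itgb5 in embryoid bodies against adherent cells (0.72) and, in neurospheres against embryoid bodies, Itga5 (-0.06), Itga6 (-0.37) and 162218_f_at (-0.35). Without suspension they were 161497_f_at of Itga7 in embryoid bodies against adherent cells (-0.08) and, in neurospheres against embryoid bodies, the same probe set (0.21) and 104210_at of Itga3 (0.07). No array other than these could be left out of its group.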
